A study of Mus musculus with 15 samples.

Results

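The responses of mouse hepatocytes to carbon tetrachloride (CCl4) were compared between wild-type animals (WT) and animals with the ΔEGFR transgene, as the difference of differences (ΔEGFR CCl4 minus ΔEGFR oil) minus (WT CCl4 minus WT oil). All 15 libraries of the series, of 15 in all, enter that contrast, and no measured value was used to choose them. The bulk mRNA libraries came from primary mouse hepatocytes in 4 groups: WT with mineral oil treatment (n = 4), WT with CCl4 (n = 3), transgenic ΔEGFR with mineral oil (n = 4) and ΔEGFR with CCl4 (n = 4). The labels do not say outright that the mice, rather than the isolated cells, were treated. Dose, route and length of treatment, age, sex and strain, the promoter of the transgene and the way hepatocytes were isolated are not given in the sources used here. No source says whether libraries of a group came from separate animals, so that every p-value here rests on the spread among the deposited libraries, which may in part be technical. A positive interaction below means that the CCl4 log2 fold change was higher in ΔEGFR than in WT, so that a gene that fell in WT fell less in ΔEGFR. A negative value means the opposite.

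CCl4 is turned into a reactive radical by the cytochrome P450 Cyp2e1, which is made mainly by the pericentral hepatocytes around the central vein, and the injury that follows draws in macrophages and activates matrix-producing stellate cells. Mineral oil is the usual carrier and serves as the control. The EGF receptor, whose ligands include TGF-alpha, amphiregulin and HB-EGF, is abundant in hepatocytes and carries growth and survival signals in the regenerating liver. Under the name ΔEGFR, a line has been described in which hepatocytes make a truncated human EGF receptor without its kinase, which blocks the native receptor, but the labels do not say whether these mice are of that line. Counts of the mouse gene Egfr therefore do not test the genotype labels.

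Total estimated counts ran from 51.73 to 155.39 M (mega) a library, in 9 libraries of 96.17 to 155.39 M and 6 of 51.73 to 61.89 M. All 4 ΔEGFR oil and 3 of the 4 ΔEGFR CCl4 libraries were of the deeper class, against 1 of 4 WT oil and 1 of 3 WT CCl4 libraries, so that depth and genotype cannot be fully told apart. The hepatocyte label was met by Alb, at a mean log2 CPM (counts scaled to a common library total) of 15.96. All 23 macrophage, 15 neutrophil, 18 T and NK cell and 22 stellate markers also had counts, and in such bulk samples fewer cells of a type and less RNA per cell cannot be told apart. WT oil replicate 1 stood apart from the other 3 WT oil libraries. Its other-cell score was 3.97 against -0.68 to 1.82 in the other 3, above every CCl4 library, and 11.79% of its counts were mitochondrial. That score is the mean of the mean log2 CPM of each marker list of non-hepatocyte cells, without the erythroid and platelet list. ΔEGFR oil replicate 1 had 16.92% mitochondrial counts, and the other 13 libraries had 2.17 to 5.54%. WT oil replicate 1 is also the only WT oil library of the deeper class, so that it is the whole WT oil group in each value from the libraries over 80 M alone.

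**Figure D1:**
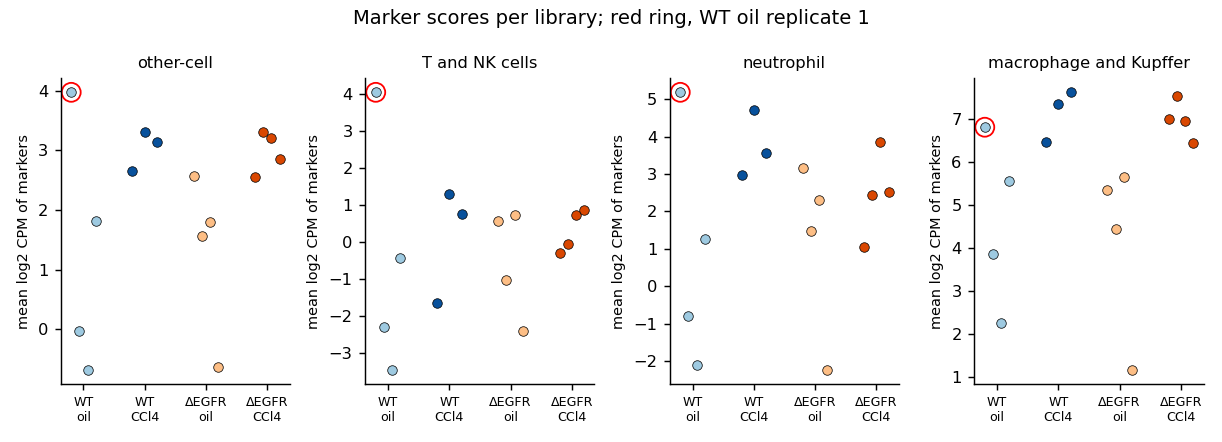
Marker scores (vertical axes), 1 point a library in the 4 groups. The other-cell score is the mean of the scores of the non-hepatocyte lists without the erythroid and platelet list. The other panels give the mean log2 CPM of the markers of T and NK cells, neutrophils, and macrophages with Kupffer cells. WT oil replicate 1 (red ring) has the highest other-cell score of all libraries, 3.97, while the CCl4 libraries of both genotypes lie between 2.55 and 3.3.

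CCl4 lowered Baat, which joins bile acids to amino acids, the complement genes C6 and C8b, and Oat, an enzyme of ornithine metabolism, in both genotypes. The lipid droplet gene Plin2 and the cyclin gene Ccnd1 rose, and Cyp2e1 and the autophagy kinase gene Ulk2 fell, with a call in WT only and with interactions of -1.44, -2.01, 2.05 and 1.07 on the log2 scale. These differences between genotypes did not pass the test across all genes, and neither did any other. Of 17975 genes that passed the filter on low counts, 0 (percent called 0) had an adjusted p under 0.05 in edgeR's quasi-likelihood test with Benjamini-Hochberg adjustment, and the lowest adjusted p was 1. 568 genes (3.16%) had an unadjusted p under 0.05, of which 283 were positive (1.57%) and 285 negative (1.59%). If no gene differed, a share of about 0.05 would be expected, so that there was no excess of low p. DESeq2 called 2 genes, the predicted gene Gm16199 and the proteasome assembly chaperone gene Psmd10, limma on log2(TPM + 1) called 1, again Gm16199, and limma-voom called 0. Interactions are therefore given below with their 95% intervals, and a nominal p means an unadjusted edgeR p. The intervals are not adjusted for the choice of genes by nominal p, so that one that excludes zero is not a call. The estimates were wide: the median 95% interval spanned 2.1 on the log2 scale, and the median standard error was 0.49.

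In the fit of all 4 groups, CCl4 changed 2250 genes in WT (12.5% of those tested, 955 or 5.31% higher and 1295 or 7.2% lower). In ΔEGFR it changed 746 genes (4.15%, 319 or 1.77% higher and 427 or 2.38% lower). 622 genes (3.46% of those tested) were called in both genotypes, 270 higher and 352 lower in each, and 0 were called in opposite directions. These are 27.6% of the WT calls and 83.4% of the ΔEGFR calls. Across the 17975 genes, which are not independent replicates, the 2 responses had a Pearson's r of 0.72 and a Spearman's rho of 0.68; over the 10046 genes whose log2 CPM averaged 2 or more the values were 0.84 and 0.78. The 2 arms share no library, but in this fit they share 1 estimate of the spread. Fitted on its own groups alone, WT had 533 calls and ΔEGFR 1286, so that the order of the counts turned. The different numbers of calls do not show a different response, since the test of the difference itself called no gene.

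The response was the smaller one in ΔEGFR for 58.6% of all genes tested, with a median absolute log2 fold change of 0.5 in WT and 0.4 in ΔEGFR. Among the WT calls it was smaller in ΔEGFR for 91.7%, with medians of 1.33 and 0.86, and among the ΔEGFR calls for 61.7%, with medians of 1.64 and 1.59. Choosing genes by their call in 1 arm favours large values in that arm, and neither share is a test. With depth class as a covariate the share over all genes was 51.1%, and 41.3% over the ΔEGFR calls of that fit. Without WT oil replicate 1 the share over all genes was 72.7%. Of the 2250 WT calls, 276 (12.3%) had a nominal interaction p under 0.05, and of the 746 ΔEGFR calls 37 (4.96%), against 3.16% of all genes tested. The same choice by a call in 1 arm bears on these shares.

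The counts of calls moved with single libraries. WT calls numbered 5111 without WT oil replicate 1, 1030 without WT oil replicate 2, 1047 without WT oil replicate 3, 907 without WT CCl4 replicate 2 and 575 without WT CCl4 replicate 3. ΔEGFR calls numbered 2145 without WT oil replicate 1, 493 without WT oil replicate 4 and 396 without WT CCl4 replicate 2. They numbered 289, 182 and 94 without ΔEGFR oil replicates 1, 2 and 4, and 101, 75 and 129 without ΔEGFR CCl4 replicates 1, 2 and 3. Genes called in both numbered 1852 without WT oil replicate 1, 407 without WT oil replicate 4, and 254 and 258 without WT CCl4 replicates 2 and 3. They numbered 264, 165 and 91 without ΔEGFR oil replicates 1, 2 and 4, and 100, 74 and 122 without ΔEGFR CCl4 replicates 1, 2 and 3. The interaction called 0 genes in each of these 15 fits. In every one of them, 266 genes remained called higher and 215 lower in WT, 31 and 37 in ΔEGFR, and 60 in both genotypes.

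**Figure D2:**
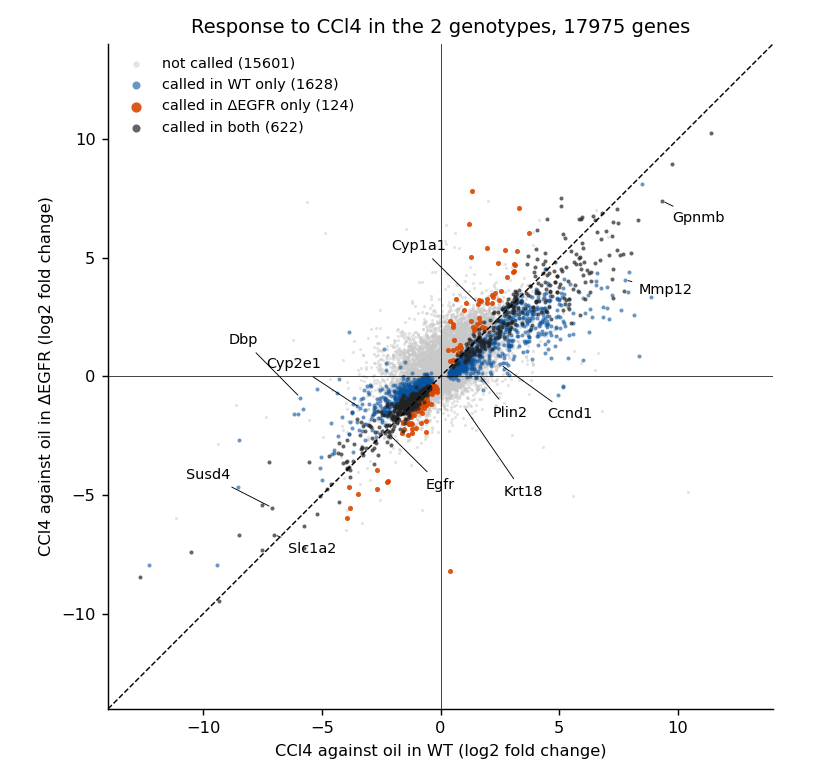
Log2 fold change of CCl4 against oil in WT (horizontal) and in ΔEGFR (vertical) for the 17975 genes tested, coloured by the genotype in which the gene was called. The 622 genes called in both (black) lie along the line of equal response (dashed), and many of the 1628 called in WT only (blue) lie between that line and the horizontal axis.

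Some differences between the responses could be bounded within 2-fold. A gene was counted so where the whole 95% interval of its interaction lay within 2-fold in either direction. That held for 6353 of the 17975 genes (35.3%), most of them not called in either genotype, and for 181 of the 622 genes called in both (29.1%). The bound limits the size of a difference and does not show that there was none. Map3k5, called in both genotypes, was counted so with an interval of 0.22 to 0.92. The 181 became 14 to 650 with single libraries left out, and leaving out any library other than WT CCl4 replicate 1 or ΔEGFR CCl4 replicate 4 moved the count by more than 1.5 times. Of the 352 genes called lower in both, with a median of -1.41 in WT, 153 (43.5%) were bounded, and of the 270 called higher, with a median of 3.19, 28 (10.4%). The median interval spanned 1.67 and 3.79 in these sets.

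Baat, which joins bile acids to taurine and glycine, was 1 such case, chosen after its values were seen. Its level was 126, 222, 227 and 201 CPM in WT oil and 84.9, 93.3 and 70.5 CPM in WT CCl4. In ΔEGFR it was 201, 210, 204 and 223 CPM in oil and 82.4, 74.7, 96.8 and 97.7 CPM in CCl4. In both genotypes every CCl4 library lay below every oil library. Baat fell by 1.23 ± 0.19 (SE) in WT and by 1.25 ± 0.17 in ΔEGFR on the log2 scale (edgeR adjusted p = 0.00444 and 0.00874), with an interaction of -0.02 and an interval of -0.58 to 0.53. The calls held with each library left out in turn.

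The ornithine aminotransferase gene Oat, a pericentral gene, fell by 3.93 and 3.89 on the log2 scale (edgeR adjusted p = 0.00638 and 0.0107), from 161 to 1020 CPM in WT oil to 16.8 to 50.3 CPM, and from 230 to 855 CPM in ΔEGFR oil to 23 to 39 CPM. Its interaction was 0.04, but the interval, from -1.7 to 1.79, does not bound the difference within 2-fold. Slc1a2, a glutamate transporter of the same zone, went from 82.4, 250, 95.3 and 19.1 CPM in WT oil to 0.501, 0.277 and 1.68 CPM in WT CCl4. In ΔEGFR it went from 58, 43.3, 25.1 and 215 CPM to 1.12, 1.3, 0.538 and 0.392 CPM. The groups did not overlap in either genotype, and the interaction was 0.37 ± 1.20. The oxysterol hydroxylase gene Cyp7b1 (interaction 0.12), the complement genes C6 (0.23) and C8b (0.20), and the male-biased Cyp4a12a (0.09) likewise fell in both genotypes. Their calls, and those of Oat and Slc1a2, held with each library left out in turn, and all but Slc1a2 were chosen after their values were seen.

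Susd4, an inhibitor of complement, fell in both genotypes, with log2 fold changes of -7.09 in WT and -5.53 in ΔEGFR (edgeR adjusted p = 0.00352 and 0.00874), with an interaction of 1.56 ± 1.03. The major urinary protein gene Mup19, a target of growth hormone and 1 of a family of near-identical copies whose reads may have been split among them, had -12.67 in WT and -8.46 in ΔEGFR (edgeR adjusted p = 0.00549 and 0.0185). Its ΔEGFR call was lost without ΔEGFR CCl4 replicate 2 (adjusted p = 0.0756). Its interaction of 4.21 had an interval of 0.33 to 8.09. In CCl4, Mup19 lay at 0.0768 to 0.371 CPM in WT and 0.0168 to 4.62 CPM in ΔEGFR. Susd4 lay at 0.0307 to 0.519 CPM and 0.292 to 1.58 CPM. At such low levels the size of both interactions is not well determined.

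Complement and coagulation genes had a median log2 fold change of -1.05 in WT and -1.03 in ΔEGFR over 35 members, with 15 and 16 members called lower (7.2% and 2.38% of all genes tested were), 0 higher, and 6 and 3 calls that held with each library left out. Of the 35, 12 were bounded within 2-fold. For 31 subunits of oxidative phosphorylation the medians were -0.50 and -0.44, and all 31 intervals of the interaction lay within 2-fold (-0.11 to 0.35 for the estimates), against 35.3% of all genes. The 2-fold bound is wider than these median responses, so that a response of this size lost in ΔEGFR could also lie within it. The 30 growth hormone and sex-biased genes tested had medians of -2.05 and -2.39, with 15 and 14 called lower, of which 6 and 2 held. The 28 phase II enzymes had medians of -0.99 and -1.0, with 16 and 10 called lower, of which 5 and 5 held. The 22 periportal genes had medians of -1.21 and -1.10, with 9 and 7 called lower, of which 2 and 0 held. In these 5 lists 1 gene, Mup19, had a nominal interaction p under 0.05, and the median interaction lay between -0.03 and 0.13. These medians moved with single libraries. The complement median interaction, 0.03, was -0.24 to 0.31 with each library left out and 0.17 without WT oil replicate 1. The oxidative phosphorylation median, 0.04, was -0.07 to 0.18, the upper value without WT oil replicate 1. The growth hormone median, 0.09, was -0.14 to 0.38, and 0.25 without that library. The phase II median, 0.13, was 0 to 0.31, and 0.25 without it, and the periportal median, -0.03, was -0.29 to 0.26, and 0.10 without it. In the libraries over 80 M alone, with WT oil replicate 1 as the only WT oil library, the medians were 0.04 for complement, -0.32 for oxidative phosphorylation, -0.53 for growth hormone (responses of -1.46 in WT and -2.54 in ΔEGFR), -0.09 for phase II and -0.24 for periportal genes.

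**Figure D3:**
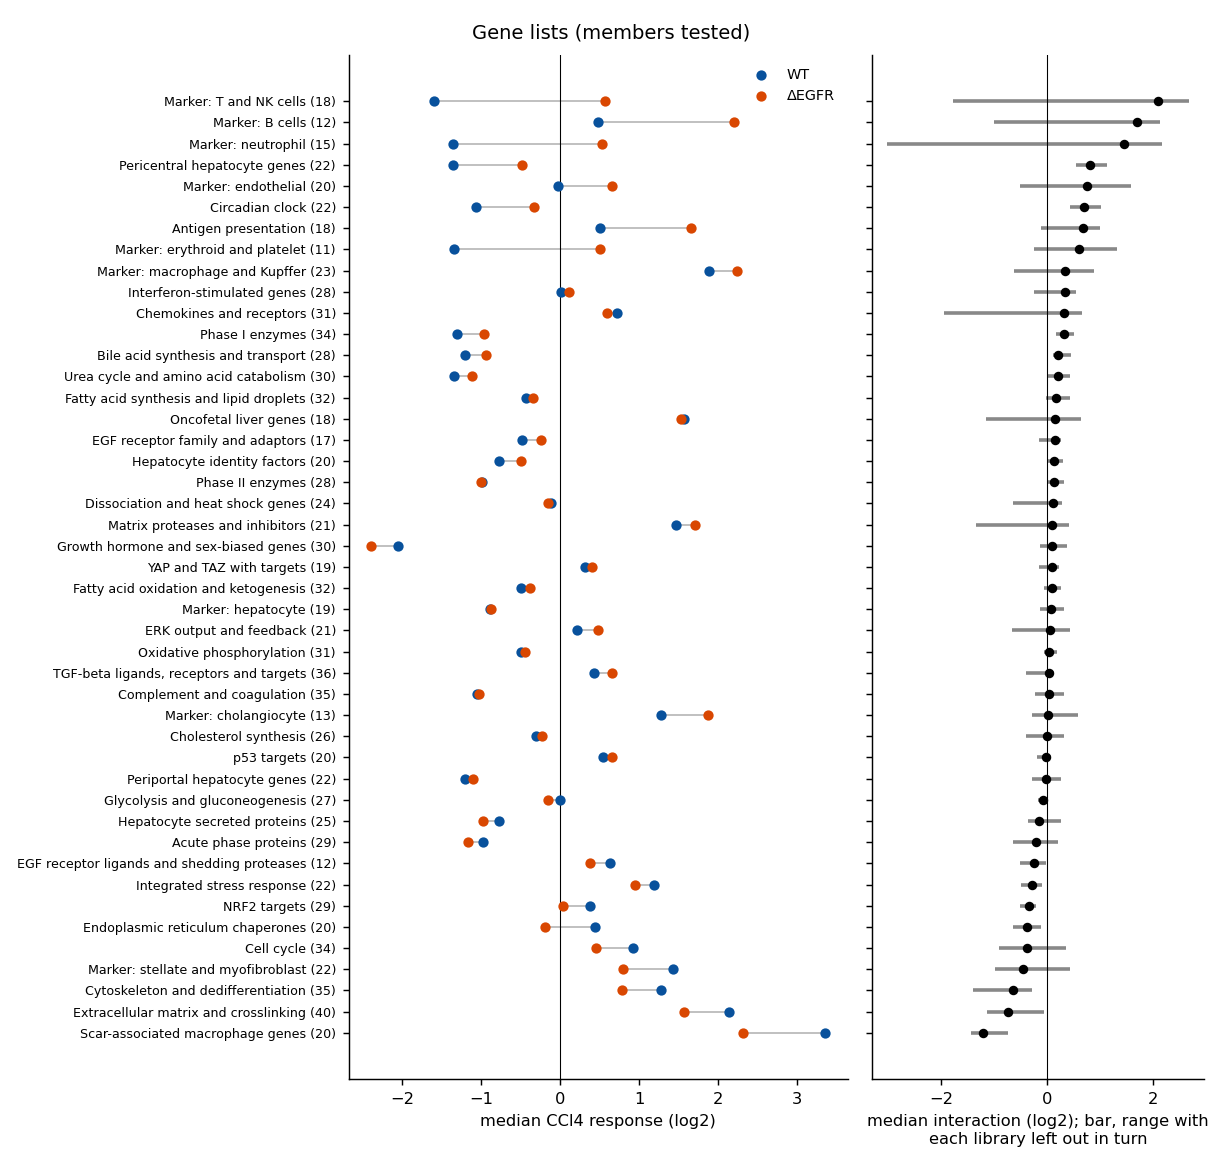
Median log2 fold change of CCl4 against oil in WT (blue) and ΔEGFR (orange) for each gene list (left), and the median interaction with its range when each library is left out in turn (right). Complement, oxidative phosphorylation and periportal genes have nearly equal medians with all libraries in. Pericentral and clock genes are positive throughout, as are phase I and bile acid genes among others. Scar-associated macrophage genes are negative throughout, as are matrix, cytoskeletal and NRF2 genes among others. The lists of lymphocyte and neutrophil markers cross zero.

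Single genes were taken by their nominal p among those with an average log2 CPM of 2 or more, predicted genes, pseudogenes and mitochondrial genes left out. The lowest p with a negative estimate belonged to Plin2, which encodes the coat protein of lipid droplets. Its level in WT was 169, 184, 227 and 286 CPM in oil and 672, 490 and 761 CPM in CCl4. In ΔEGFR it was 215, 340, 412 and 319 CPM in oil and 313, 315, 423 and 356 CPM in CCl4. The WT groups did not overlap, while the ΔEGFR groups overlapped almost entirely. Plin2 rose by 1.57 ± 0.25 on the log2 scale in WT (edgeR adjusted p = 0.00429), and in ΔEGFR the change was 0.13 ± 0.23. The interaction was -1.44 ± 0.33 (interval -2.16 to -0.72). It kept its sign and a nominal p under 0.05 in all 28 alternative fits, from -2.21 to -1.29, with an adjusted p of 0.268 at the lowest.

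Ccnd1, which encodes cyclin D1, stood at 34.7, 23.7, 14.6 and 69.6 CPM in WT oil and 234, 192 and 183 CPM in WT CCl4. In ΔEGFR it stood at 109, 213, 139 and 64.4 CPM in oil and at 182, 221, 165 and 179 CPM in CCl4. The CCl4 ranges of the genotypes overlapped, and 3 of the 4 ΔEGFR oil libraries lay above every WT oil library. Ccnd1 rose by 2.51 ± 0.45 in WT (edgeR adjusted p = 0.00671), against 0.51 ± 0.41 in ΔEGFR, and the interaction was -2.01 ± 0.61 (interval -3.32 to -0.69). Of 34 cell cycle genes 6 were called higher in WT and 1 in ΔEGFR (5.31% and 1.77% of all genes tested were), of which 2 and 0 held with each library left out, and the median interaction was -0.39, with 26 of 34 negative. That median turned to 0.36 without WT CCl4 replicate 2 and to 0.12 without ΔEGFR oil replicate 3. It was -0.21 and -0.18 without WT oil replicates 2 and 3, -0.19 without ΔEGFR CCl4 replicate 1, and -0.92 to -0.72 without WT oil replicate 4, WT CCl4 replicate 1, ΔEGFR oil replicate 4 or ΔEGFR CCl4 replicate 4. In the libraries over 80 M alone, with WT oil replicate 1 as the only WT oil library, it was 0.02, with 17 of 34 positive. The median responses of the list, 0.92 in WT and 0.45 in ΔEGFR, turned to -0.29 and -0.65 with the other-cell score as a covariate. The median interaction of that fit was -0.28. Cdk4, the kinase partner of cyclin D1, rose by 0.61 in WT (adjusted p = 0.00638) and had 0.32 in ΔEGFR, with an interaction of -0.30 (interval -0.62 to 0.02).

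The keratin genes Krt18 and Krt8, which form the intermediate filament pair of hepatocytes, had interactions of -2.21 ± 0.68 (interval -3.67 to -0.76) and -2.07 ± 0.67 (interval -3.51 to -0.63). Neither passed the test in either genotype: the Krt18 change was 0.97 in WT and -1.25 in ΔEGFR. Krt18 stood at 277, 176, 211 and 335 CPM in WT oil and 900, 286 and 280 CPM in WT CCl4, so that 1 library, replicate 1, carried the higher mean. In ΔEGFR it stood at 849, 410, 959 and 221 CPM in oil, with replicates 1 and 3 high, and at 309, 217, 289 and 215 CPM in CCl4. Krt8 had the same high libraries, with 1160 CPM in WT CCl4 replicate 1 and 1250 and 1560 CPM in ΔEGFR oil replicates 1 and 3, and lay between 259 and 633 CPM in the others. Without WT CCl4 replicate 1 the Krt18 interaction was -1.47.

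Of the other genes with the lowest p and a negative estimate, 4 are given here, with smaller effects. Capn2, a calcium-dependent protease, was at 37.8, 37, 39.9 and 52.2 CPM in WT oil and rose to 103, 69.9 and 88.1 CPM in WT CCl4 (1.06 on the log2 scale, edgeR adjusted p = 0.00536). In ΔEGFR it was at 65.3, 50.7, 69.3 and 45.3 CPM in oil and 62.8, 66.3, 66.9 and 71.8 CPM in CCl4, with overlapping groups, and the interaction was -0.85 (interval -1.37 to -0.32). Psmd10 was at 5.76, 6.95, 6.35 and 7.26 CPM in WT oil, 9.94, 9.8 and 9 CPM in WT CCl4, 8.68, 8.55, 9.06 and 8.48 CPM in ΔEGFR oil and 9.19, 7.74, 7.78 and 7.31 CPM in ΔEGFR CCl4. The ΔEGFR oil libraries lay above all WT oil libraries and close to the CCl4 libraries. Its interaction was -0.66 (interval -1.05 to -0.27), its DESeq2 adjusted p was 0.0191, and its edgeR call in WT was lost without WT oil replicate 3 (adjusted p = 0.0589). The purine synthesis gene Adss had an interaction of -0.67 and the DNA repair endonuclease gene Apex1 -0.61.

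Among positive estimates the lowest p belonged to Ulk2, a kinase that starts autophagy. Ulk2 stood at 80, 101, 124 and 102 CPM in WT oil and 38.6, 42.4 and 42.4 CPM in WT CCl4, and at 66.5, 61.9, 50.6 and 79.4 CPM in ΔEGFR oil and 51.2, 66.2, 54 and 48.4 CPM in ΔEGFR CCl4. All 4 WT oil libraries lay above all ΔEGFR oil libraries, all 3 WT CCl4 libraries lay below all ΔEGFR CCl4 libraries, and the 2 ΔEGFR groups overlapped. Ulk2 fell by 1.3 ± 0.17 in WT (edgeR adjusted p = 0.00344), against -0.23 ± 0.16 in ΔEGFR, and the interaction was 1.07 ± 0.23 (interval 0.57 to 1.57). The other 7 were Hectd4 (0.82) and Herc2 (0.53), both with ubiquitin ligase domains, Tmem131 (0.66), the RNA helicase gene Helz (0.58), the kelch protein gene Klhdc7a (1.11), Tnrc6b (0.70), a partner of Argonaute in microRNA silencing, and the stress kinase gene Map3k5 (0.57). Hectd4 and Klhdc7a fell in WT, with -1.01 and -1.72 (both edgeR adjusted p = 0.00344), and had -0.18 and -0.61 in ΔEGFR, where neither was called. The 15 genes named here of both directions kept their sign in all 28 alternative fits and a nominal p under 0.05 with each library left out in turn. In the 9 libraries over 80 M alone, with only WT oil replicate 1 and WT CCl4 replicate 3 in the WT groups, Plin2 (-2.21) and Ccnd1 (-1.9) kept a nominal p under 0.05, and Ulk2 (0.63) and Krt18 (-1.38) did not. The shallow class has no ΔEGFR oil library and gives no interaction.

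**Figure D4:**
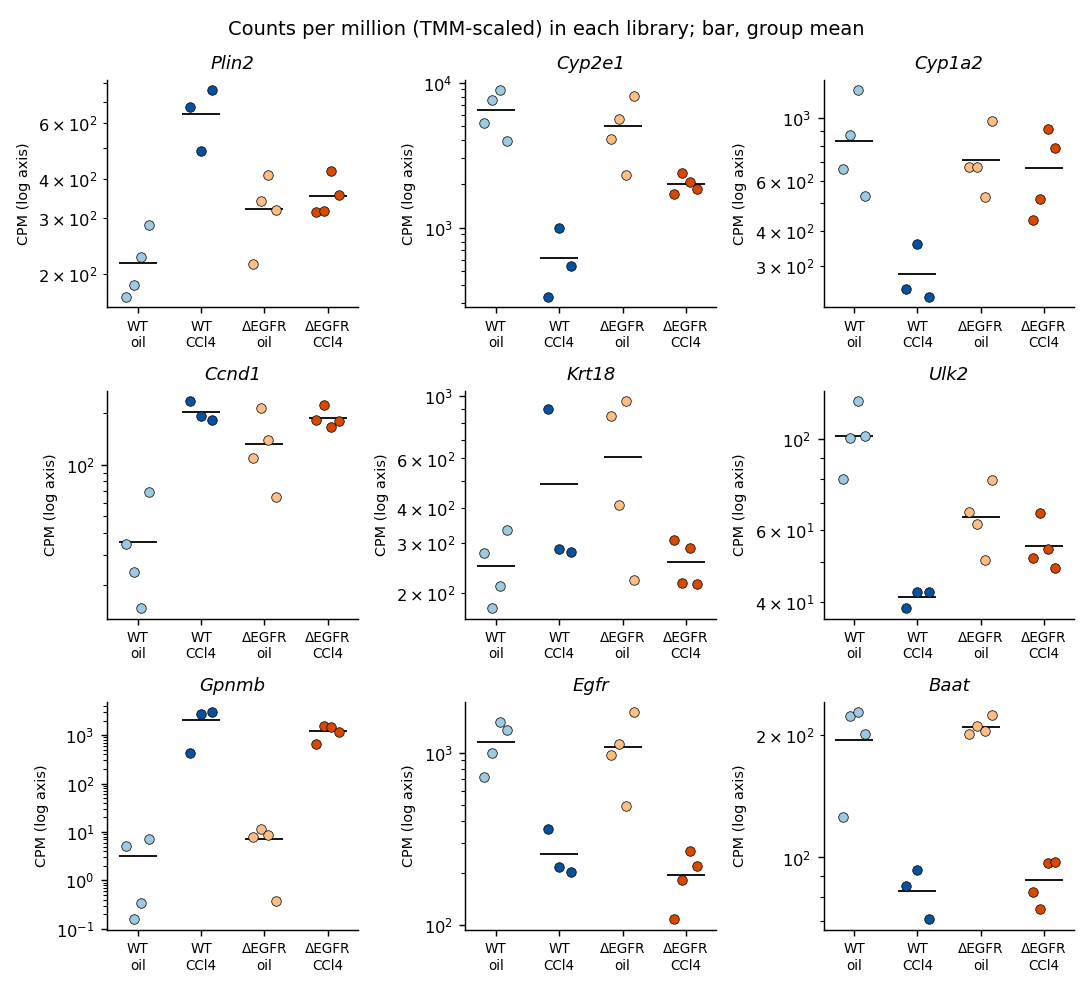
CPM of 9 genes in every library on log axes, grouped by genotype and treatment, with the group mean as a bar. Plin2, Cyp2e1, Cyp1a2, Ccnd1 and Ulk2 differ between WT oil and WT CCl4 without overlap and by less in ΔEGFR, Krt18 varies between replicates, and Gpnmb, Egfr and Baat respond in both genotypes.

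All 22 pericentral hepatocyte genes, which Wnt signals from the central vein keep on, had a positive interaction, with a median of 0.80 against 0.03 for all genes tested. Their median response was -1.36 in WT, where 10 were called lower and 0 higher, and -0.48 in ΔEGFR, where 4 were called lower and 1 higher. Of all genes tested 7.2% were called lower in WT, and 2.38% lower and 1.77% higher in ΔEGFR. With each library left out, 5 and 2 of the lower calls held, and 0 of the higher. Nominal interaction p was under 0.05 for 3 of 22, Cyp2e1, Cyp1a2 and Rhbg, against 1.57% of all genes in that direction. The median was 0.55 to 1.13 with each library left out, 0.73 with depth class as a covariate (18 of 22 positive), and 0.24 in the libraries over 80 M alone (13 of 22 positive), where WT oil replicate 1 is the only WT oil library. Without WT oil replicate 1 it was 0.90.

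Cyp2e1, the enzyme that activates CCl4, stood at 5280, 7620, 8890 and 3950 CPM in WT oil and at 331, 989 and 539 CPM in WT CCl4. In ΔEGFR it stood at 4070, 5580, 2300 and 8090 CPM in oil and at 1700, 2370, 2050 and 1850 CPM in CCl4. Every WT CCl4 library lay below every ΔEGFR CCl4 library, and the oil groups overlapped. The ΔEGFR oil and CCl4 ranges met, at 2300 and 2370 CPM. Cyp2e1 fell by 3.38 ± 0.44 in WT (edgeR adjusted p = 0.00382), and the ΔEGFR change was -1.33 ± 0.41 (adjusted p = 0.0815). The interaction was 2.05 ± 0.60 (interval 0.76 to 3.34), 1.74 to 2.52 with each library left out and 1.89 in the libraries over 80 M alone, where its nominal p was no longer under 0.05.

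Cyp1a2, which oxidises caffeine and aromatic amines, stood at 660, 873, 1260 and 532 CPM in WT oil and 249, 359 and 233 CPM in WT CCl4, and at 674, 673, 528 and 979 CPM in ΔEGFR oil and 437, 517, 918 and 788 CPM in ΔEGFR CCl4. The WT groups were separate and the ΔEGFR groups overlapped. The log2 changes were -1.57 in WT (edgeR adjusted p = 0.0148, and 0.0725 without WT CCl4 replicate 3) and -0.10 in ΔEGFR, with an interaction of 1.47 ± 0.46 (interval 0.48 to 2.45). Rhbg, an ammonium transporter, had -1.92 in WT and -0.37 in ΔEGFR, and an interaction of 1.54 (interval 0.17 to 2.92) that was 0.74 to 1.83 with each library left out. Its WT call (adjusted p = 0.0264) was lost without WT CCl4 replicate 1, 2 or 3, the adjusted p reaching 0.106. The Wnt targets Axin2 and Lgr5 had 1.11 (called, edgeR adjusted p = 0.0458) and 1.05 (not called) in ΔEGFR. In WT they had 0.31 and -0.14, neither called. Their interactions were 0.81 (interval -0.08 to 1.7) and 1.19 (interval -0.32 to 2.7). Rhbg, Axin2 and Lgr5 were chosen after their values were seen, as was Cyp2c54. Cyp2c54 fell by 2.98 in WT and by 2.11 in ΔEGFR (edgeR adjusted p = 0.00638 and 0.0312), with an interaction of 0.88 ± 0.65.

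For other drug and bile acid genes the estimates were smaller and depended on the fit. Of 34 phase I enzymes 28 had a positive interaction (median 0.31), and of 28 bile acid genes 25 (median 0.21), while 53.1% of all genes were positive. The phase I median was 0.17 to 0.20 without WT oil replicate 3, ΔEGFR oil replicate 3 or ΔEGFR CCl4 replicate 4, and 0.50 without ΔEGFR oil replicate 4. The bile acid median was 0.10 without ΔEGFR oil replicate 3 and 0.33 to 0.44 without WT oil replicate 1, WT CCl4 replicate 1 or ΔEGFR oil replicate 4. With depth class as a covariate the phase I median was 0.11 (21 of 34 positive) and the bile acid median 0.02 (14 of 28). In the libraries over 80 M alone, with WT oil replicate 1 as the only WT oil library, the medians were -0.12 and -0.12. The bile acid uptake transporter gene Slc10a1 fell by 2.24 in WT (edgeR adjusted p = 0.00638), had -1.23 in ΔEGFR (adjusted p = 0.0644) and an interaction of 1.01 (interval -0.08 to 2.1). Cyp7a1, the rate-limiting enzyme of bile acid synthesis, had -1.18 in WT and 0.52 in ΔEGFR, neither called, and an interaction of 1.70 ± 1.22. The urea cycle enzyme gene Cps1 fell by 1.53 in WT and by 1.12 in ΔEGFR (edgeR adjusted p = 0.00926 and 0.0404). Its interaction was 0.41, with an interval of -0.44 to 1.26. Alb had -0.41 and -0.46, neither called, and an interaction of -0.04 (interval -1.33 to 1.25).

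Clock output genes of the PAR bZIP family, whose levels follow the time of day, had positive estimates (Dbp 5.0, Tef 2.62 and Hlf 1.31). Of 22 clock genes, 6 had a positive and 1 a negative interaction with a nominal p under 0.05, against 1.57% and 1.59% of all genes. 7 were called lower in WT and 0 in ΔEGFR (7.2% and 2.38% of all genes tested were), and 1 of the 7 held with each library left out. Dbp stood at 100, 177, 52.4 and 26.5 CPM in WT oil, 0.742, 1.98 and 1.72 CPM in WT CCl4, 165, 69.3, 2.55 and 229 CPM in ΔEGFR oil and 118, 101, 21 and 9.92 CPM in ΔEGFR CCl4. The 3 WT CCl4 libraries lay below all others, and both ΔEGFR groups spread over more than 10-fold. Its interaction was 5.0 ± 1.49 (interval 1.79 to 8.21), and its edgeR call in WT (adjusted p = 0.0195) was lost without any 1 of the 3 WT CCl4 libraries, the adjusted p reaching 0.0851.

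Per3, a negative arm of the clock, showed the same order: 27.8, 43, 7.22 and 3.41 CPM in WT oil, 0.705, 1.51 and 0.919 CPM in WT CCl4, 18.7, 7.2, 1.67 and 28.9 CPM in ΔEGFR oil, and 17.7, 25.3, 5.26 and 4.6 CPM in ΔEGFR CCl4. Again the WT CCl4 libraries were the lowest 3 of 15. Its interaction was 4.19 (interval 1.41 to 6.98). Tef had 2.62, Hlf 1.31, Nr1d2 1.55 and Per2 2.43, and Nfil3, which represses the sites that Dbp activates, had -1.10; these 5 were chosen after their values were seen. The list median was 0.70, and 0.42 without WT oil replicate 2. The time of day of collection is not given in the sources used here, and its part in these differences was not tested.

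Thrsp, which drives fat synthesis, stood at 440, 625, 283 and 130 CPM in WT oil, 46.5, 53.7 and 32.2 CPM in WT CCl4, 221, 184, 72.8 and 814 CPM in ΔEGFR oil and 226, 335, 124 and 136 CPM in ΔEGFR CCl4. The WT groups were separate and the ΔEGFR groups overlapped, with an interaction of 2.41 (interval 0.39 to 4.43). Its WT call was lost without WT oil replicate 2 or any 1 of the WT CCl4 libraries (adjusted p up to 0.109). The list of 32 fatty acid synthesis and lipid droplet genes, which holds Plin2 and Thrsp, had a median interaction of 0.17. It was 0.34 without WT oil replicate 1, 0.43 without ΔEGFR oil replicate 4, 0.01 without WT oil replicate 4 and -0.03 without ΔEGFR CCl4 replicate 4, and -0.21 in the libraries over 80 M alone.

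**Figure D5:**
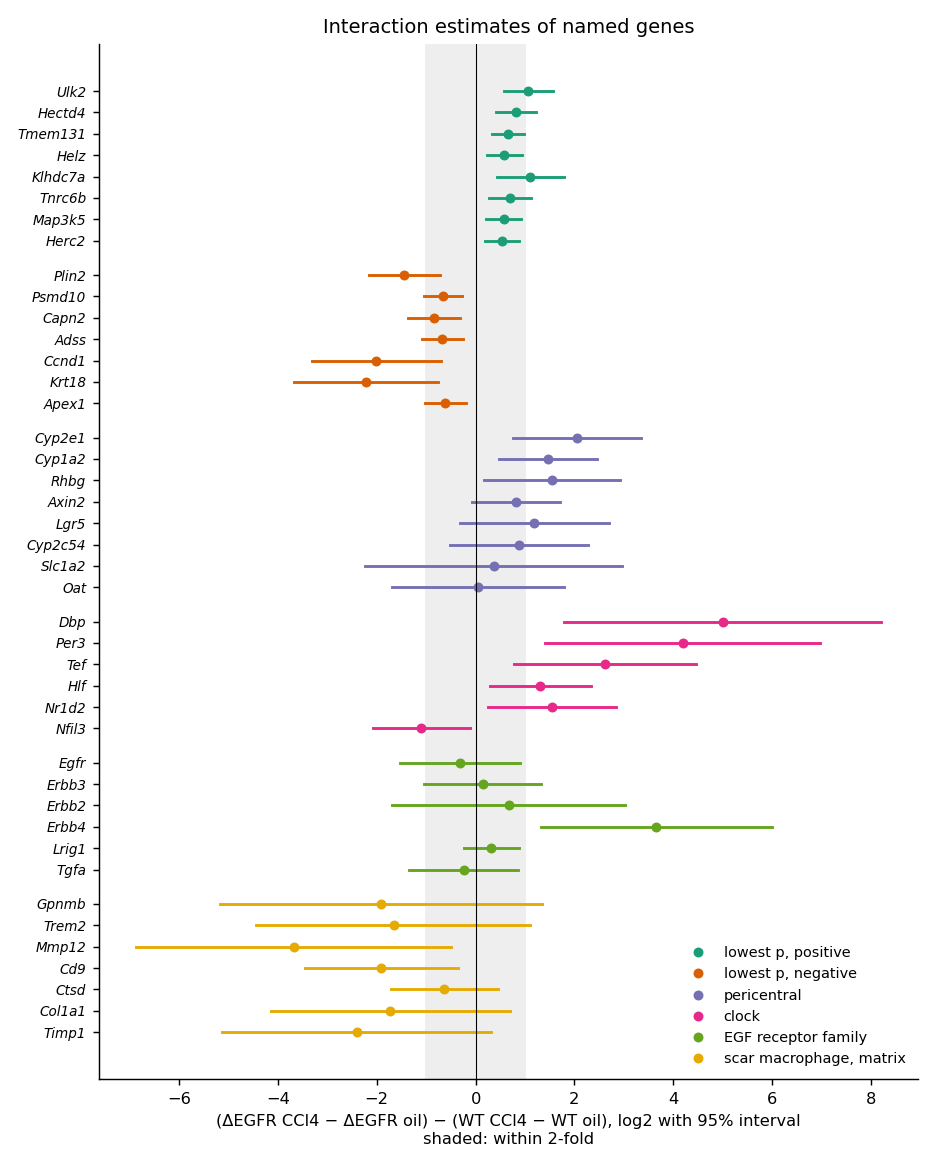
Interaction estimates (points) with 95% intervals (lines) on the log2 scale for 42 named genes, coloured by the set they belong to, with the range within 2-fold shaded. The clock gene Dbp has the highest estimate, 5.0, and Mmp12 the lowest, -3.68, while the intervals of Egfr, Slc1a2, Oat, Gpnmb and Col1a1 include zero.

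Genes of scar-associated macrophages, the lipid-handling Trem2 and Gpnmb cells that gather in injured liver, included 14 of 20 that rose in WT and 6 that rose in ΔEGFR (5.31% and 1.77% of all genes tested did). With each library left out 10 and 1 of these calls held. The list had medians of 3.35 and 2.31. The interaction was negative for 19 of 20, with a median of -1.22 that was -0.74 without WT CCl4 replicate 3 and -1.44 without WT oil replicate 1. Nominal interaction p was under 0.05 for 4 of 20, Plin2, Cd9, Mmp12 and Cstb, against 1.59% of all genes in that direction. Summed over the list the level was 12900 to 25200 CPM in WT oil, 19900 to 33500 in WT CCl4, 20600 to 26100 in ΔEGFR oil and 20200 to 26000 in ΔEGFR CCl4. Several members, Plin2 among them, are also made by hepatocytes.

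Gpnmb, a lysosomal glycoprotein, stood at 5.2, 0.157, 0.339 and 7.01 CPM in WT oil, 433, 2720 and 2950 CPM in WT CCl4, 7.8, 11.5, 8.69 and 0.378 CPM in ΔEGFR oil and 640, 1540, 1480 and 1140 CPM in ΔEGFR CCl4. Every CCl4 library exceeded every oil library by more than 10-fold, and the CCl4 groups of the genotypes overlapped. Gpnmb rose by 9.31 ± 1.11 in WT and 7.40 ± 1.02 in ΔEGFR (edgeR adjusted p = 0.0045 and 0.0178, the latter 0.053 without ΔEGFR CCl4 replicate 2), and the interaction was -1.91 ± 1.51 (interval -5.17 to 1.35). The protease gene Ctsd, chosen after its values were seen, rose by 2.88 and 2.25, in both genotypes with each library left out, and had an interaction of -0.63. The macrophage elastase gene Mmp12 stood at 2.51, 0.314, 0.399 and 8.37 CPM in WT oil, 169, 447 and 1260 CPM in WT CCl4, 12.7, 6.86, 20.6 and 0.639 CPM in ΔEGFR oil and 93.4, 190, 256 and 147 CPM in ΔEGFR CCl4. Oil and CCl4 libraries were separate in both genotypes, and the CCl4 groups overlapped in part. Its interaction was -3.68 (interval -6.87 to -0.49), and -2.68 without WT CCl4 replicate 3. Cd9 stood at 21.6, 11.1, 7.7 and 29.5 CPM in WT oil, 63.2, 128 and 141 CPM in WT CCl4, 44.8, 37.8, 56.9 and 9.76 CPM in ΔEGFR oil and 54.7, 62.3, 79.6 and 55.7 CPM in ΔEGFR CCl4, with separate groups in WT and overlapping groups in ΔEGFR. Its interaction was -1.91 (interval -3.46 to -0.36), and its nominal p was no longer under 0.05 without WT CCl4 replicate 3.

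General macrophage markers had no stable direction. Of 23 macrophage and Kupffer cell markers 17 had a positive interaction (median 0.34, from -0.62 with 6 positive without WT oil replicate 1 to 0.88 without ΔEGFR oil replicate 3), and none was at 0 in any group. Their summed level was 232 to 3620 CPM in WT oil, 3250 to 8670 in WT CCl4, 143 to 1910 in ΔEGFR oil and 3720 to 7660 in ΔEGFR CCl4, so that the CCl4 ranges overlapped. Adgre1, the gene of the F4/80 antigen, had 1.82 in WT and 2.62 in ΔEGFR, neither called, and an interaction of 0.80 ± 1.26. Cd163, a scavenger receptor of resident macrophages, stood at 84.5, 21.3, 4.93 and 17.8 CPM in WT oil, 14.1, 3 and 14 CPM in WT CCl4, 9.96, 2.75, 5.25 and 1.23 CPM in ΔEGFR oil and 18.8, 21.2, 9.58 and 22.5 CPM in ΔEGFR CCl4. WT oil replicate 1 was the highest library. The interaction was 3.54 (interval 1.06 to 6.02), and 2.41 without that library. The part that macrophage number had in the scar-associated genes was not tested.

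Lists of blood cell markers turned with WT oil replicate 1. The median interaction was 2.08 for 18 T and NK cell markers (18 of 18 positive), 1.70 for 12 B cell markers and 1.45 for 15 neutrophil markers. Without that library these were -1.78 (1 of 18 positive), -1.0 and -3.03. The summed T and NK cell level ran from 7.04 to 435 CPM in WT oil and from 10.5 to 54.4 CPM over the other 3 groups. Endothelial markers had 0.74, and -0.52 without that library, and 31 chemokine genes 0.32, and -1.95. Antigen presentation genes had 0.67, and -0.11. No direction is given for these lists.

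Of 40 matrix and crosslinking genes 15 rose in WT (11 with each library left out), and 3 were called higher and 1 lower in ΔEGFR (0 and 0). Of all genes tested 5.31% were called higher in WT, and 1.77% higher and 2.38% lower in ΔEGFR. The comparison between genotypes moved with single libraries. The median interaction was -0.75, with 32 of 40 negative and 0 of 40 with a nominal p under 0.05. It was -0.07 without WT CCl4 replicate 1, -0.43 without ΔEGFR oil replicate 1 and -1.14 without ΔEGFR CCl4 replicate 2, and 0.16 in the libraries over 80 M alone, where WT oil replicate 1 is the only WT oil library. Col1a1, the main fibrillar collagen, stood at 1.92, 0.426, 0.838 and 6.71 CPM in WT oil, 91.1, 31.2 and 26.6 CPM in WT CCl4, 9.3, 9.01, 7.26 and 3.7 CPM in ΔEGFR oil and 33.5, 102, 18.5 and 22.9 CPM in ΔEGFR CCl4. No CCl4 library reached down to an oil library, and 3 of 4 ΔEGFR oil libraries lay above all WT oil libraries. Col1a1 rose by 4.32 in WT (edgeR adjusted p = 0.0114), had 2.60 in ΔEGFR (adjusted p = 0.0817) and an interaction of -1.73 ± 1.12. Tnc rose by 6.30 and Mgp by 4.93 in WT, with interactions of -3.46 (-1.59 without WT CCl4 replicate 1) and -2.38. The protease inhibitor gene Timp1 had an interaction of -2.41 (interval -5.14 to 0.32), and the ligand gene Tgfb1 0.18 ± 1.29, which was -1.27 without WT oil replicate 1. In WT oil, Tnc lay at 0 to 0.377 CPM, Mgp at 0 to 0.0565 CPM and Timp1 at 0 to 0.396 CPM. With oil levels near 0 the interactions of Tnc, Mgp and Timp1 are not well determined. Stellate cell markers, summed, were at 387 to 990 CPM in WT CCl4 and 459 to 1190 CPM in ΔEGFR CCl4. The median interaction of the 22 stellate markers was -0.46, and 0.42 without WT CCl4 replicate 1, -0.98 without WT oil replicate 1 and 0.87 in the libraries over 80 M alone, and their part in the matrix values was not tested.

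Cytoskeletal genes, which hepatocytes raise as they lose their mature state, had a median interaction of -0.65, with 25 of 35 negative. 8 were called higher in WT (0 with each library left out) and 0 in ΔEGFR, against 5.31% and 1.77% of all genes tested. Nominal interaction p was under 0.05 with a negative sign for 7 of 35, against 1.59% of all genes: Krt18, Krt8, Vcl (-0.76), Tpm1 (-1.25), S100a10 (-1.30), Anxa5 (-1.40) and Myl12a (-0.65), all but the keratins chosen after their values were seen. The median was -1.40, with 0 of 35 positive, without WT oil replicate 1, -0.42 without WT oil replicate 2 and -0.28 without ΔEGFR oil replicate 3. In the libraries over 80 M alone, with WT oil replicate 1 as the only WT oil library, it was -0.23, with 16 of 35 positive. The part of non-hepatocyte cells in the values of these genes was not tested. Chaperones of the endoplasmic reticulum had a median of -0.39, with 18 of 20 negative and 0 of 20 with a nominal p under 0.05. That median was -0.11 without WT CCl4 replicate 1, -0.21 without WT oil replicate 1, -0.62 without WT CCl4 replicate 3 and -0.64 without ΔEGFR CCl4 replicate 4. Their main member Hspa5, chosen after its values were seen, stood at 865, 727, 1190 and 972 CPM in WT oil, 2660, 1150 and 1500 CPM in WT CCl4, 981, 721, 2420 and 1210 CPM in ΔEGFR oil and 1260, 884, 920 and 1790 CPM in ΔEGFR CCl4. WT CCl4 replicate 1 and ΔEGFR oil replicate 3 were the high libraries, both also high for the keratins, and the interaction was -1.05 (interval -2.26 to 0.16). NRF2 targets had a median of -0.34, with 24 of 29 negative, and 1 of them, the oxidative stress gene Osgin1, had a nominal p under 0.05 (-1.07, interval -1.96 to -0.19). The NRF2 median was -0.51 without WT oil replicate 4 or WT CCl4 replicate 1 and -0.21 without ΔEGFR oil replicate 3.

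The mouse EGF receptor gene fell with CCl4 in both genotypes. Egfr stood at 720, 1000, 1510 and 1360 CPM in WT oil, 361, 216 and 202 CPM in WT CCl4, 970, 1120, 492 and 1710 CPM in ΔEGFR oil and 108, 182, 269 and 220 CPM in ΔEGFR CCl4. No CCl4 library reached an oil library, and the oil groups of the genotypes overlapped, as did the CCl4 groups. Egfr fell by 2.14 ± 0.41 in WT (edgeR adjusted p = 0.0109, and 0.0567 without WT CCl4 replicate 3) and by 2.46 ± 0.38 in ΔEGFR (adjusted p = 0.0112). The interaction was -0.32 ± 0.56, with an interval of -1.52 to 0.89 that does not bound it within 2-fold.

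Of 17 genes of the receptor family and its adaptors, 1 was called higher and 4 lower in WT and 0 and 2 in ΔEGFR. Of these calls 0 higher and 2 lower in WT, and 1 lower in ΔEGFR, held with each library left out. Of all genes tested 5.31% were called higher and 7.2% lower in WT, and 1.77% and 2.38% in ΔEGFR. The median interaction was 0.14, from -0.15 without WT oil replicate 1 to 0.25 without ΔEGFR oil replicate 4. Erbb3, the other abundant family member, had an interaction of 0.14 ± 0.55, and Erbb2, at a mean log2 CPM of -0.69, had 0.67 ± 1.10. The receptor inhibitor gene Lrig1, chosen after its values were seen, fell by 1.08 in WT and by 0.77 in ΔEGFR (edgeR adjusted p = 0.00638 and 0.0355). It had a bounded interaction of 0.31 (interval -0.24 to 0.87). Erbb4 had 3.66 ± 1.08 (interval 1.33 to 5.99) at very low levels: 2.83, 1.14, 2.02 and 1.47 CPM in WT oil, 0.111, 0 and 0.148 CPM in WT CCl4, 1.06, 1.69, 0.568 and 2.26 CPM in ΔEGFR oil and 0.285, 1.18, 0.538 and 1.45 CPM in ΔEGFR CCl4. The WT CCl4 libraries were the lowest 3 of 15, and the size of the estimate depends on the scale at such levels, with 0.24 on log2(TPM + 1). Of 12 ligand and shedding protease genes 2 were called higher in WT and 1 in ΔEGFR (5.31% and 1.77% of all genes tested were), of which 0 and 0 held with each library left out. In this list 0 had a nominal interaction p under 0.05. Tgfa had an interaction of -0.24 ± 0.51, Hbegf 0.83 ± 1.22 and Areg 1.47 ± 1.75. The signs of Erbb2, Erbb3, Tgfa and Hbegf turned under at least 1 of the alternative fits. The early response gene Fos, a readout of ERK signalling and of tissue handling, had -2.03 (interval -4.23 to 0.16), which was -0.89 without WT CCl4 replicate 1.

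Genes called in ΔEGFR only numbered 124, of which 11 (8.87%) had a nominal interaction p under 0.05, against 3.16% of all genes tested. Among the genes called in WT only the share was 15.4%. Choosing genes called in 1 arm only favours a large difference between the arms, and neither share is a test. Cyp1a1, the main target of the aryl hydrocarbon receptor, stood at 0.357, 0.807, 0.439 and 0.716 CPM in WT oil, 1.45, 2 and 1.76 CPM in WT CCl4, 0.975, 0.574, 0.367 and 0.587 CPM in ΔEGFR oil and 2.49, 2.45, 7.21 and 8.81 CPM in ΔEGFR CCl4. All 4 ΔEGFR CCl4 libraries lay above all others. Cyp1a1 rose by 3.06 ± 0.46 in ΔEGFR (edgeR adjusted p = 0.0107) and had 1.59 ± 0.50 in WT (adjusted p = 0.0523), and the interaction was 1.48 (interval 0.02 to 2.93), with 1.08 without ΔEGFR CCl4 replicate 4, and its nominal p stayed under 0.05 in 5 of the 15 fits with a library left out. Gpc3, an oncofetal proteoglycan, was at or under 0.0669 CPM in WT oil and 0.146 CPM in ΔEGFR oil, and stood at 1.21, 2.41 and 1.79 CPM in WT CCl4 and 3.69, 5.5, 8.74 and 7.05 CPM in ΔEGFR CCl4. It rose in both genotypes (edgeR adjusted p = 0.00382 and 0.0048) with each library left out, and the ΔEGFR CCl4 libraries lay above the WT CCl4 libraries. With oil levels near 0 its interaction, 0.79 ± 1.15, is not well determined, and it ranged from -3.84 to 1.84 over the alternative fits.

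Tsc22d1 stood at 33.2, 25.9, 18.5 and 18.6 CPM in WT oil, 35.4, 33.5 and 35 CPM in WT CCl4, 26.8, 21.1, 14.1 and 19.4 CPM in ΔEGFR oil and 48.1, 46, 43.2 and 40.2 CPM in ΔEGFR CCl4, with an interaction of 0.60 (interval -0.04 to 1.25). Its ΔEGFR call (edgeR adjusted p = 0.0178) was lost without ΔEGFR oil replicate 4 or ΔEGFR CCl4 replicate 1 or 2 (up to 0.0683). Enho, which encodes the hormone adropin, stood at 19.6, 52.2, 48.5 and 23.6 CPM in WT oil, 30.2, 9.54 and 7.11 CPM in WT CCl4, 58.2, 23.5, 31.1 and 35.7 CPM in ΔEGFR oil and 7.87, 5.78, 7.48 and 7.07 CPM in ΔEGFR CCl4. Here WT CCl4 replicate 1 stayed within the oil range, and the interaction of -1.19 (interval -2.61 to 0.22) was -0.32 without it. The ΔEGFR call of Enho (adjusted p = 0.0229) was lost without ΔEGFR oil replicate 4 or ΔEGFR CCl4 replicate 1, 2 or 3 (adjusted p up to 0.0817).

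Aqp11, a water channel of intracellular membranes, was among the genes called in WT only with the lowest adjusted p. It stood at 57, 73, 59.9 and 54 CPM in WT oil, 16.8, 18.2 and 12.7 CPM in WT CCl4, 50.4, 53.9, 31.3 and 81.4 CPM in ΔEGFR oil and 29.6, 37.3, 29.3 and 26.3 CPM in ΔEGFR CCl4. The WT CCl4 libraries lay below all ΔEGFR CCl4 libraries. Aqp11 fell by 1.94 ± 0.25 in WT (edgeR adjusted p = 0.00344), had -0.83 ± 0.23 in ΔEGFR (adjusted p = 0.0635) and an interaction of 1.11 (interval 0.37 to 1.85). Hmga1, a chromatin protein of growing cells, rose by 1.32 in WT (adjusted p = 0.00382), had 0.60 in ΔEGFR and an interaction of -0.72 (interval -1.31 to -0.13), whose nominal p was no longer under 0.05 without WT CCl4 replicate 3.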

How the data were processed

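The authors deposited 1 table per library with an expected count and a TPM value for each of 56953 genes. Per the submitters' processing notes, STAR 2.7.8a and RSEM 1.3.0 were used with the GRCm39 build, and per the labels a stranded mRNA kit was used. The deposited expected counts (estimated reads per gene, shared among similar genes by RSEM) were rounded, and the deposited TPM values served in 1 alternative. Names were matched by Ensembl ID for 52029 genes (91.4%), with GRCm38 tables used for names only, so that no coordinates are given. Genes were filtered with edgeR 4.0.16 (filterByExpr, minimum count 10, minimum total 15), scaled with TMM, and tested with the robust quasi-likelihood fit of all 4 groups. Standard errors and 95% intervals came from the same fit. A call is an adjusted p under 0.05 over 17975 genes. CPM values are counts scaled to a common total after TMM. Depth bears on low genes. The spread between libraries had a common biological coefficient of variation of 50.9%, and the part of counting in the error of single genes was not tested.

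The genes, lists and the contrast were chosen with earlier results of these data known. Named genes are the 8 with the lowest unadjusted p in each direction (mean log2 CPM at least 2), the 2 with the lowest p of each list, a fixed set of receptor, injury and identity genes, and genes with the largest, narrowest or 1-sided calls of the arms. 1 gene that the rule picks is not reported here. Other named list members were chosen after their values were seen. Replicate numbers follow deposit order and pair nothing. No replicates were duplicates: the 21 pairs had r from 0.867 to 0.98. The fit was also run on simulated counts, with changes set in ΔEGFR CCl4 only and no library set apart. Its outcome is not given here and does not measure the power of the interaction test in these libraries. Alternatives used DESeq2 1.42.0, limma 3.58.1, other scalings and filters, covariates and left-out libraries (R 4.3.3).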

Additional observations from a re-analysis of the deposited data

Results flagged for a closer look

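In 4 of 123 groups of 4 libraries with a value checked in each, 1 library stood apart by Dixon's criterion at 95%, by the gap to its neighbour relative to the range of the group. Chance flags about 1 in 20 such groups. Gpnmb was at 0.378 CPM in ΔEGFR oil replicate 4, far below the other 3 ΔEGFR oil libraries. The mitochondrial share was 11.79% in WT oil replicate 1 and 16.92% in ΔEGFR oil replicate 1, each above the other 3 libraries of its group. The total was 135.54 M counts in WT oil replicate 1, above the other 3 WT oil libraries.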

How the results depend on the processing

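The interaction called 0 genes with each library left out (0 to 0), under every scaling and filter run and with limma-voom, but 2 with DESeq2 (Gm16199 and Psmd10) and 1 with limma on log2(TPM + 1). The 15 single genes named for the lowest nominal p kept their sign throughout. The cause of the moves below was not tested. Calls numbered 3611 in WT, 2398 in ΔEGFR and 1633 in both with DESeq2, with 524 of the last bounded within 2-fold. limma-voom gave 1211 in ΔEGFR, and limma on log2(TPM + 1) gave 2271 in ΔEGFR, 1599 in both and 705 bounded. Without a scaling factor there were 1180 in ΔEGFR and 307 bounded, with upper-quartile factors 112 bounded, and without a filter on low counts 1457 in WT, 470 in ΔEGFR and 376 in both. The other-cell score as a covariate gave 1127, 163, 129 and 40. The depth class as a covariate gave 1643 in ΔEGFR, 1071 in both and 448 bounded. Libraries over 80 M alone gave 0 in WT, 96 in ΔEGFR, 0 in both and 0 bounded, with 1 library in each WT group (WT oil replicate 1 and WT CCl4 replicate 3), whose spread was taken from the other groups. Leaving out the highest and lowest other-cell score gave 2173 in ΔEGFR, 1217 in both and 341 bounded. Fitted on its own groups, WT gave 533 and ΔEGFR 1286. With each library left out, WT calls ran from 575 to 5111, ΔEGFR calls from 75 to 2145, calls in both from 74 to 1852 and bounded genes from 14 to 650. No scaling moved the median of all genes to 0.4 in WT and 0.44 in ΔEGFR, and log2(TPM + 1) to 0.28 and 0.31, and DESeq2 moved the median interaction to 0.14 from 0.03. Rps6kb1, with a small fall in both genotypes, turned to 0.1 in WT and 0.14 in ΔEGFR on log2(TPM + 1), and to 0.04 in ΔEGFR without scaling.

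No paired analysis was possible because the labels give the libraries no replicate or animal number. Depth class and genotype overlap in part. The parts of counting and of the spread between libraries in the width of the intervals were not tested gene by gene. Of all genes tested, 35.3% were bounded within 2-fold.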
